A study of Mus musculus with 12 samples.

Results

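Semaphorins, plexins, neuropilins, ephrins and Eph receptors are the cell-surface and secreted guidance molecules best known from growing axons, and the 52 mouse genes of these families were followed here in bone. They were taken by symbol (Sema3 to Sema7, Plxna to Plxnd, Nrp1 and Nrp2, Epha and Ephb, Efna and Efnb), with the transcripts of a gene summed, from 19510 gene symbols measured in all. Among them were 20 semaphorins, 9 plexins, 2 neuropilins, 13 Eph receptors and 8 ephrins. Femurs of 5-week-old male mice of mixed background were dissected into metaphysis, the flared part beside the growth plate, and diaphysis, the shaft, and RNA of each was sequenced. The metaphysis groups were Dlx3Oc-cKO mice (a conditional deletion of Dlx3, cKO from here on) and wild-type mice (Dlx3+/+, WT), and the diaphysis groups were the same 2 genotypes, with 3 libraries in each of the 4 groups. Dlx3 encodes a homeodomain transcription factor of bone-forming cells. Neither the Cre line, nor the cells it acts in, nor whether WT mice carried Cre is named in the sources used here. Whether each library is a mouse of its own is not stated in plain words either, and the p-values therefore speak of the spread among libraries, which may be partly technical. Each library title opens with a number of its own, and none recurs between the regions. By title, then, no metaphysis library is paired with a diaphysis library. The letters GP appear in every metaphysis title and in no diaphysis title. Their meaning is not spelled out in the titles, and whether the metaphysis pieces included growth plate was not tested.

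As background, semaphorins are ligands that act mostly through plexin receptors. Most of the secreted class 3 members need a neuropilin as the binding partner, and the membrane-bound classes bind plexins directly. Ephrins are ligands held on the cell surface, A-type by a lipid anchor and B-type by a membrane-spanning segment, and they signal into both the cell with the Eph receptor and the cell with the ephrin. In bone, osteoclast and osteoblast lineages exchange such signals, among them Sema4d from osteoclasts with plexin B1 on osteoblasts, and ephrin B2 on osteoclasts with EphB4 on osteoblasts, and blood vessels use neuropilins, plexin D1 and EphB4.

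Values are RPKM, that is, reads normalised to transcript length and to the mapped total of each library, with depths of 24.6 to 34.9 M reads (M, mega) in the metaphysis and 18.5 to 54.2 M in the diaphysis as worked out from the spacing of low values. Dlx3 itself measured 1.98, 2.80 and 3.24 RPKM in metaphysis cKO libraries, against 8.37, 8.90 and 10.1 RPKM in WT libraries, and 0.763, 1.55 and 1.17 RPKM in diaphysis cKO libraries, against 3.22, 7.64 and 13.1 RPKM in WT libraries. It was lower in cKO in both regions without overlap. All 16 osteoblast markers were present in both regions, and genes of erythroid cells, B cells and skeletal muscle were present as well, so each library is a mixture. In such bulk samples fewer cells of a type and less RNA per cell cannot be told apart. In the metaphysis, globin made up 15.8%, 13.5% and 17.2% of the summed RPKM in cKO libraries. The WT libraries there had 19.1%, 22.1% and 19%, so the genotypes did not overlap. Of the diaphysis libraries, WT replicate 1 was unlike the rest: globin made up 32.6% of its summed RPKM, against 15.1% to 26.5% in the other 5 diaphysis libraries, and its osteoblast markers summed to 5067 RPKM, the lowest of the diaphysis. It was the lowest library for 32 of the 39 family members tested in the diaphysis, so diaphysis results are given with and without it.

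In the metaphysis 10 genes of these families rose in cKO mice, led by Sema7a, a semaphorin tethered to the membrane by a lipid anchor. All 52 genes were listed in the table, and 37 passed the filter on low values (3 of the 6 libraries had to reach 1 RPKM). Of these 37, 10 rose past an adjusted p of 0.05 (limma on log2(RPKM + 0.1), adjusted over all genes tested), none fell, and 27 did not pass; over all 12641 genes tested, 7.51% rose and 3.89% fell, 11.4% in either direction. The 10 were Sema7a, Plxnb1, Sema3b, Efnb1, Sema3f, Plxnd1, Efna1, Sema4c, Ephb4 and Plxnb2. Their spread over families was 4 of 17 semaphorins, 3 of 8 plexins, neither of the 2 neuropilins, 1 of 4 Eph receptors and 2 of 6 ephrins tested. The log2 fold change was above 0 for 30 of the 37, against 45.1% of all genes, and its median was 0.53 over the 37 members and -0.04 over all genes. An unadjusted p under 0.05 was found for 27 of the 37, against 30.6% of all genes. All 3 cKO libraries lay above all 3 WT libraries for 25 of the 37 and below them for 2, against 18.7% and 18.4% of all genes tested. Of the 37, 4 reached the minimum in all 3 cKO libraries but in fewer WT libraries (Efna2, Ephb2, Sema4g and Sema6a). For 1 it was the other way round (Sema3c), and none of these 5 is among the 10. Ephb2, Sema4g and Sema6a are among the 25, however, and Ephb2 and Sema6a are among those with an unadjusted p under 0.05. They passed the filter through their cKO libraries, so their place in those counts follows partly from the filter.

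These calls rest on few libraries. Leaving out each metaphysis library in turn gave 1 to 9 members called: dropping cKO replicate 3 left 1, dropping WT replicate 1 left 1, and dropping WT replicate 2 left 2. Dropping any of the other 3 gave 9, of which 8 were among the 10 and 1 was new: Ephb3 without cKO replicate 1, Nrp1 without cKO replicate 2 and Nrp2 without WT replicate 3. Sema7a was the one member called in all 6 of these fits, while Plxnb1 was called in 4, Efna1, Ephb4 and Plxnb2 in 3, Efnb1, Plxnd1, Sema3b and Sema3f in 2, and Sema4c in 1. The log2 fold change of each of the 10 stayed positive in every one of the 6 fits. In 1 model of all 12 libraries, which also takes the wider spread of the diaphysis, none of the 10 passed, and without the filter on low values 4 did (Efna1, Ephb4, Plxnb1 and Sema7a).

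**Figure D1:**
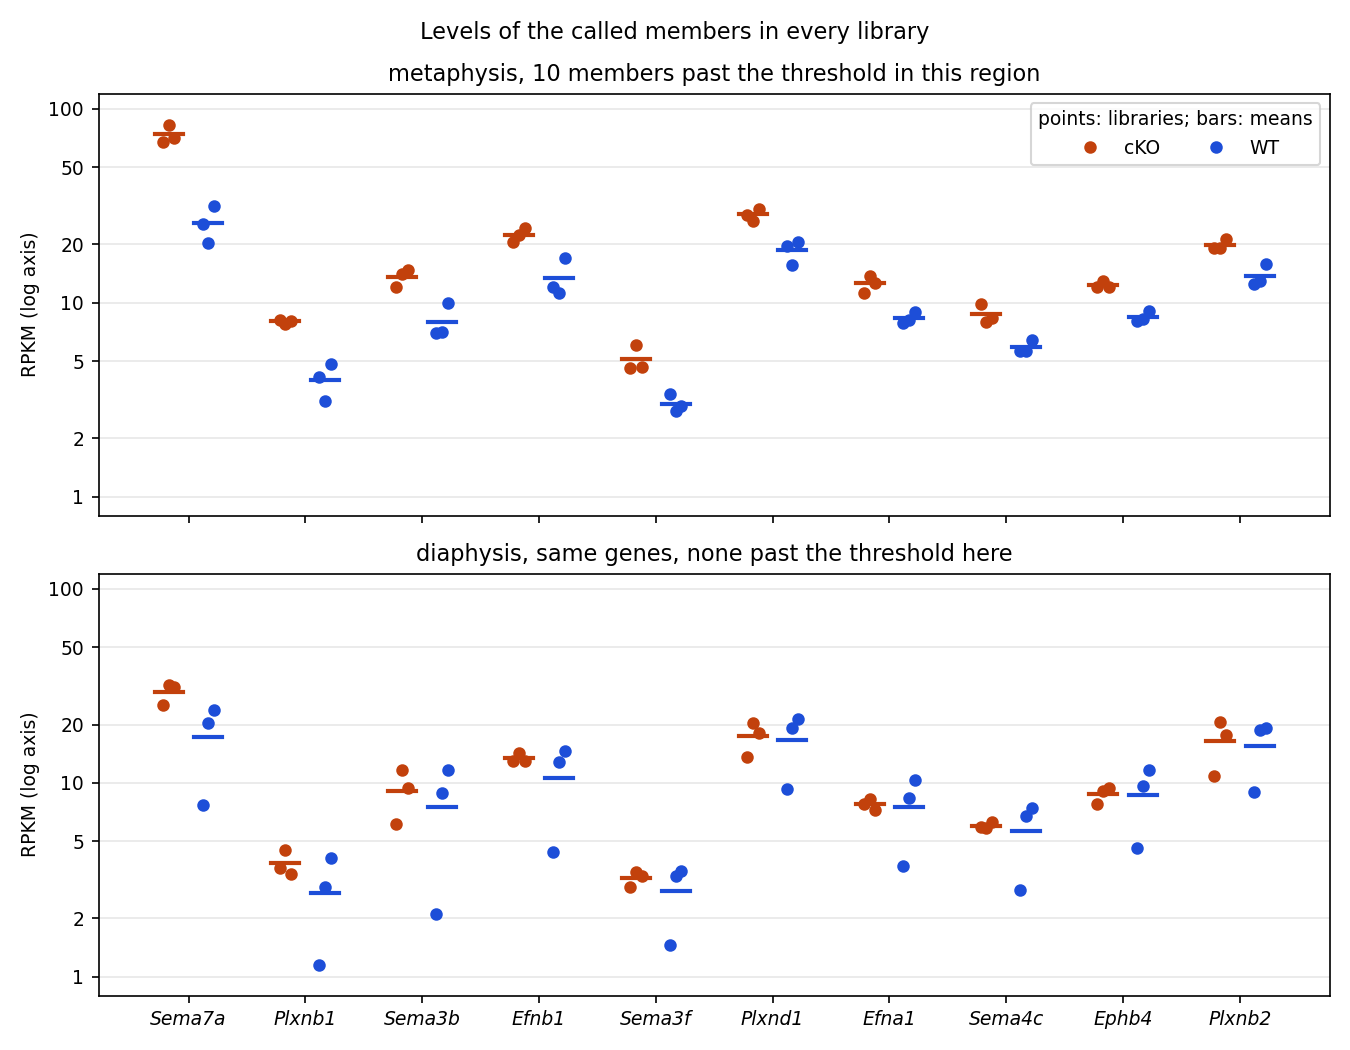
RPKM on a log axis in every library for the 10 members that rose in the metaphysis, in the metaphysis (top) and the diaphysis (bottom); each point is a library, each bar the mean of 3, cKO left of WT. In the metaphysis the groups are apart for each gene, with Sema7a at 67.4 to 82.9 RPKM in cKO and 20.4 to 31.7 RPKM in WT; in the diaphysis they overlap for each gene but Sema7a, and WT replicate 1 is the lowest point.

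The promoters of the members that rose are shown because Dlx3 is a homeodomain protein, and homeodomains bind cores such as TAATTG and TAATTA, which differ in their last letter. RefSeq promoters (assembly GRCm38.p6, 250 bases before to 50 after the start) were matched for 46 of the 52 genes, 60 promoters in all; Sema3b, Sema3f, Plxna1, Plxna4, Efnb3 and Sema6a were not matched. Either core, searched on both strands, was present in 5 of these 60 promoters, or 8.33%, against 12.4% of all 32851 promoters. Among the 5 are overlapping promoters of Epha7 that share the same TAATTG, so that site is counted more than once. Of the 11 promoters of the 8 matched genes that rose, 1 held a core, that of the upstream start of Efna1. A match is a string of letters, and its absence says no more than that the letters are not in this window. The 250 bases before the start are given below in lower case, 5′ to 3′ on the strand of the gene, with the core in capitals, for the 3 matched genes with the largest fold change and for Efna1. They are Sema7a (chr9:57939862-57940111, plus strand), Plxnb1 (chr9:109095186-109095435, plus strand), Efnb1 (chrX:99135811-99136060, plus strand) and the upstream start of Efna1 (chr3:89280952-89281201, minus strand, core at -175).
Sema7a: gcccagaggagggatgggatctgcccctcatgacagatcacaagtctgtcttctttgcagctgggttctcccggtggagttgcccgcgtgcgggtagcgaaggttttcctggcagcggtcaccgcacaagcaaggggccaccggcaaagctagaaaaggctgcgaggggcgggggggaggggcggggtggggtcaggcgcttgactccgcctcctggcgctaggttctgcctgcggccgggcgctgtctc
Plxnb1: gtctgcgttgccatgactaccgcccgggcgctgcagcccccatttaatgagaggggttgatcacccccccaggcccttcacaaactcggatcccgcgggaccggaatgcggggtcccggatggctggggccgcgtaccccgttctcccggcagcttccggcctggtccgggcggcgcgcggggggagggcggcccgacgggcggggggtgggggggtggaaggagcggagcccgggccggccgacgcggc
Efnb1: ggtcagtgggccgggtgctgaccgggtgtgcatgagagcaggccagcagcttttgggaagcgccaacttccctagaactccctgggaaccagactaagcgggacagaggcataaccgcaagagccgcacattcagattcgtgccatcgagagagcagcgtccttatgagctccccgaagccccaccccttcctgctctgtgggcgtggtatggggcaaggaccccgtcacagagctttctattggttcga
Efna1: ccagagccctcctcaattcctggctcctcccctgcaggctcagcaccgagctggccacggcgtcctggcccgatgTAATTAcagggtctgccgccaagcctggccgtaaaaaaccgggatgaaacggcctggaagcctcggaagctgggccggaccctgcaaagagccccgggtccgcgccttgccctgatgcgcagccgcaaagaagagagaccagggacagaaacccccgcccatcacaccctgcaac
The sequences are rich in G and C, at 67.3% over the 300-base window for Sema7a, 74.7% for Plxnb1, 59.7% for Efnb1 and 63.7% for this start of Efna1. The median was 64.0% over the promoters of the families and 52.7% over all promoters.

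Sema7a acts on integrin beta 1 and plexin C1 and has been shown in cultured bone cells to promote migration and the fusion of osteoclast precursors. It measured 67.4, 82.9 and 71.1 RPKM in metaphysis cKO libraries, against 25.4, 20.4 and 31.7 RPKM in WT libraries. The lowest cKO library stood well above the highest WT library. The log2 fold change was 1.53 ± 0.17 (SE, n = 3 each, adjusted p = 0.00907, limma), the 37th highest of the 12641 genes tested, and it lay between 1.37 and 1.69 with a library left out. Sema7a made up 36.4% of the summed semaphorin RPKM in cKO and 19.0% in WT, where Sema4d was level with it at 19.7%. Its receptors did not pass. Plexin C1 (Plxnc1) measured 3.98, 3.15 and 2.87 RPKM in cKO and 5.15, 3.88 and 3.89 RPKM in WT, with overlapping libraries, a log2 fold change of -0.36 ± 0.17 and an adjusted p of 0.204. Itgb1, integrin beta 1, averaged 110 ± 3.60 RPKM in cKO and 97.0 ± 1.74 RPKM in WT (SD, n = 3 each, adjusted p = 0.153). Its cKO libraries all lay above WT, with a small log2 fold change of 0.18 ± 0.08 (SE).

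Among the secreted class 3 semaphorins, Sema3b and Sema3f rose. Sema3b, a target of vitamin D in osteoblasts, measured 12, 14.1 and 14.7 RPKM in metaphysis cKO libraries, against 6.95, 7.05 and 9.99 RPKM in WT libraries, a log2 fold change of 0.78 ± 0.16 (SE, adjusted p = 0.0280, limma). Sema3f, which binds neuropilin 2, measured 4.60, 6.07 and 4.64 RPKM in cKO, against 3.37, 2.76 and 2.93 RPKM in WT, a log2 fold change of 0.73 ± 0.15 (SE, adjusted p = 0.0271). For both genes the groups were apart, with WT replicate 3 of Sema3b closest to the cKO libraries. Sema3a, which in mice restrains osteoclasts and favours osteoblasts, measured 3.14, 2.42 and 2.62 RPKM in cKO and 1.62, 1.76 and 1.91 RPKM in WT, and its adjusted p of 0.0529 missed the threshold (log2 fold change 0.60 ± 0.16). Sema3d, a guidance cue for vessels and neural crest, was one of the 2 members whose cKO libraries all lay below WT, at 4.83, 2.89 and 3.69 RPKM in cKO and 4.88, 4.85 and 5.60 RPKM in WT. Its highest cKO and lowest WT library are nearly level, and the adjusted p was 0.162 (log2 fold change -0.44 ± 0.19). Sema3e, the ligand that binds plexin D1 without a neuropilin, stayed below 1 RPKM, at 0.113, 0.311 and 0.103 RPKM in cKO and 0.301, 0.610 and 0.0812 RPKM in WT, and was not tested.

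Among the membrane-bound semaphorins of classes 4 to 6, Sema4c alone passed. Sema4c, a ligand of plexin B2, measured 9.82, 7.94 and 8.37 RPKM in metaphysis cKO libraries, against 5.62, 5.66 and 6.42 RPKM in WT libraries, a log2 fold change of 0.55 ± 0.12 (SE, adjusted p = 0.0292, limma). The cKO libraries all lay above those of WT. Sema4d, which osteoclasts use to hold back bone formation, was the most abundant of this set, at 35.4, 33.3 and 33.6 RPKM in cKO and 28.5, 23.9 and 28.1 RPKM in WT. Its groups were apart too, but the difference was small (log2 fold change 0.35 ± 0.10) and the adjusted p was 0.0583. Sema6d, a plexin A1 ligand that acts on osteoclasts, was also apart, at 12.2, 11.8 and 12.6 RPKM in cKO and 9.30, 8.70 and 10.4 RPKM in WT, with a log2 fold change of 0.37 ± 0.10 and an adjusted p of 0.0524. Sema4b was the other member whose cKO libraries all lay below WT, at 12.7, 9.50 and 12.3 RPKM in cKO and 14, 14.1 and 14.1 RPKM in WT (log2 fold change -0.30 ± 0.12, adjusted p = 0.159); it was named after its values were seen. Over the 17 semaphorins tested, 12 had a log2 fold change above 0 and 5 below, in a range from -0.67 for Sema3c to 1.53 for Sema7a, and Sema3e, Sema4f and Sema5b were below the filter.

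Among plexins, the receptors, Plxnb1, Plxnb2 and Plxnd1 rose. Plxnb1, the receptor of Sema4d, measured 8.19, 7.81 and 8.07 RPKM in metaphysis cKO libraries, against 4.13, 3.11 and 4.83 RPKM in WT libraries, a log2 fold change of 1.00 ± 0.16 (SE, adjusted p = 0.0161, limma). The 3 cKO libraries were close together and WT replicate 2 was the lowest. Plxnb2, a receptor of Sema4c, measured 19.2, 19.2 and 21.4 RPKM in cKO, against 12.5, 13 and 15.8 RPKM in WT, a log2 fold change of 0.53 ± 0.11 (SE, adjusted p = 0.0300). Plxnd1, the vessel-guiding receptor of Sema3e, was the most abundant plexin at 28.5, 26.5 and 30.6 RPKM in cKO, against 19.7, 15.7 and 20.7 RPKM in WT (log2 fold change 0.62 ± 0.13, adjusted p = 0.0267). For Plxnb2 and Plxnd1, too, every cKO library exceeded every WT library. Plxna1, the partner of Sema6d in osteoclasts, measured 8.64, 6.33 and 7.45 RPKM in cKO and 5.19, 5.03 and 6.36 RPKM in WT. Plxna2, another class A receptor, measured 9.75, 6.76 and 7.13 RPKM in cKO and 5.58, 4.45 and 6.04 RPKM in WT. Plxna1 overlapped by 1 library pair (log2 fold change 0.43 ± 0.15, adjusted p = 0.104) and Plxna2 did not (0.54 ± 0.18, adjusted p = 0.0881). The lowest 2 of the 8 plexins tested were Plxna4, with a log2 fold change of -0.05 ± 0.16, and Plxnc1, and Plxnb3 was below the filter at 0.118 ± 0.0257 RPKM in cKO and 0.141 ± 0.0288 RPKM in WT (SD, n = 3 each).

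Neither neuropilin passed with all 6 metaphysis libraries, and each passed in 1 of the 6 fits that left a library out. Nrp2, the partner of Sema3f, made up 81.9% of the summed neuropilin RPKM in metaphysis cKO and 79.9% in WT, at 77.5, 68.5 and 76.1 RPKM in cKO and 48.7, 39.2 and 63.9 RPKM in WT. The groups were apart, but the WT libraries spread widely and the adjusted p was 0.0712 (log2 fold change 0.57 ± 0.17, limma). Nrp1, the partner of Sema3a and a co-receptor of VEGF, measured 18.5, 14.2 and 16.4 RPKM in cKO and 13.2, 12.9 and 12.2 RPKM in WT, without overlap (log2 fold change 0.35 ± 0.11, adjusted p = 0.0883).

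Of the ephrins, Efnb1 and Efna1, the most abundant 2, rose. Efnb1, an X-linked ephrin whose loss disturbs skeletal patterning in mice, measured 20.7, 22.3 and 24.3 RPKM in metaphysis cKO libraries, against 12, 11.3 and 17 RPKM in WT libraries, a log2 fold change of 0.76 ± 0.16 (SE, adjusted p = 0.0304, limma). WT replicate 3 came closest to the cKO libraries. Efna1, a ligand of EphA2, measured 11.3, 13.8 and 12.7 RPKM in cKO, against 7.87, 8.13 and 8.98 RPKM in WT, a log2 fold change of 0.59 ± 0.11 (SE, adjusted p = 0.0206). Of its 2 transcripts, 1 carried 99.4% of the metaphysis RPKM. Efnb2, the osteoclast-side partner of EphB4, measured 6.07, 5.11 and 5.09 RPKM in cKO and 3.86, 3.49 and 4.32 RPKM in WT, apart but with an adjusted p of 0.0571 (log2 fold change 0.47 ± 0.13). Efna2, reported as an osteoclast ephrin that acts on EphA2 of osteoblasts, measured 2.08, 1.49 and 1.8 RPKM in cKO and 1.62, 0.864 and 1.25 RPKM in WT. Efna4, another A-type ligand, measured 1.64, 2.93 and 2.26 RPKM in cKO and 1.42, 1.42 and 1.75 RPKM in WT. Both overlapped between genotypes, with log2 fold changes of 0.52 ± 0.26 for Efna2 and 0.51 ± 0.23 for Efna4, at an adjusted p of 0.222 for Efna2 and of 0.184 for Efna4.

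Among the 13 Eph receptors, 4 were tested in the metaphysis, and Ephb4 rose. Ephb4, which marks veins and, on osteoblasts, receives ephrin B2, measured 12, 13 and 12.1 RPKM in cKO libraries, against 8.06, 8.30 and 9.05 RPKM in WT libraries, a log2 fold change of 0.54 ± 0.09 (SE, adjusted p = 0.0168, limma). Replicates were tight in both groups. Epha2, a receptor of Efna1 and Efna2, measured 9.23, 12.2 and 9.48 RPKM in cKO and 7.22, 5.80 and 8.40 RPKM in WT (log2 fold change 0.53 ± 0.17, adjusted p = 0.0830). Ephb2 measured 1.68, 1.81 and 1.95 RPKM in cKO and 0.906, 0.932 and 1.27 RPKM in WT (log2 fold change 0.77 ± 0.20, adjusted p = 0.0513). Ephb3 measured 2.12, 3.20 and 3.01 RPKM in cKO and 1.24, 1.72 and 1.71 RPKM in WT (log2 fold change 0.79 ± 0.22, adjusted p = 0.0570). Ephb2 and Ephb3 are B-class receptors, and in both the groups were apart and the adjusted p missed the threshold. Ephb2 reached 1 RPKM in all 3 cKO libraries but in only 1 WT library, so it passed the filter through cKO. Epha4, a receptor found in growth plate and bone cells, was below the filter in the metaphysis, at 0.644, 0.798 and 0.640 RPKM in cKO and 0.800, 1.00 and 0.678 RPKM in WT, with overlap. The other 8 receptors were below the filter, and Epha1, Epha5, Epha6, Epha7 and Epha8 were the lowest, with the highest mean among them 0.299 ± 0.0745 RPKM, in cKO for Epha8 (SD, n = 3). As 10 reads on a transcript of 2 kb are worth 0.143 to 0.203 RPKM in these libraries, such values rest on few reads.

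One ephrin below the filter, Efna3, was above WT in both regions, and was named after its values were seen. It measured 0.955, 1.07 and 1.58 RPKM in metaphysis cKO libraries, against 0.140, 0.399 and 0.416 RPKM in WT libraries. In the diaphysis it measured 0.701, 1.01 and 0.736 RPKM in cKO libraries, against 0, 0.271 and 0.470 RPKM in WT libraries. With Sema7a it was one of the 2 members whose cKO libraries all exceeded WT in both regions. Of all genes tested, 18.7% did so in the metaphysis and 2.24% in the diaphysis. The share that did so in both regions was not computed, so no weight is put on the 2. It lay below the filter because fewer than 3 libraries of each region reached 1 RPKM, and had no test in the filtered fit. In the fit without the filter it did not pass in either region, with a log2 fold change of 1.69 ± 0.37 in the metaphysis (SE, adjusted p = 0.0674, limma) and 1.71 ± 0.66 in the diaphysis (adjusted p = 1.00). Efna1, Efna3 and Efna4 are neighbours on chromosome 3, on the minus strand at chr3:89075655-89085064, chr3:89117821-89126887 and chr3:89137312-89141950 (GENCODE annotation of NCBIM37, the build called mm9 in the labels).

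The members that rose included all 4 tested on chromosome 9: Sema7a at chr9:57787920-57810671, Sema3b at chr9:107500005-107511560, Sema3f at chr9:107583833-107612806 and Plxnb1 at chr9:108997950-109022425. Chromosome 9 held 5.64% of the genes tested and 6.81% of all genes that rose, and 64 of its 706 tested genes rose. Grouping by chromosome was not planned before the calls were seen. On chromosome 5, 1 of 4 members tested rose, Ephb4 at chr5:137791337-137819897. The neighbouring Sema3d, Sema3a, Sema3e and Sema3c of that chromosome held no gene that passed. Log2 fold changes were -0.44 for Sema3d, 0.60 for Sema3a and -0.67 for Sema3c. Sema3e was below the filter.

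Summed over each family, the metaphysis level was higher in cKO for all 5. Semaphorins summed to 203 ± 6.95 RPKM in cKO and 136 ± 10.2 RPKM in WT, plexins to 79.7 ± 5.10 RPKM in cKO and 55.4 ± 6.41 RPKM in WT, and neuropilins to 90.4 ± 6.93 RPKM in cKO and 63.4 ± 12.1 RPKM in WT (SD, n = 3 each). Eph receptors summed to 31.2 ± 2.46 RPKM in cKO and 21.3 ± 2.15 RPKM in WT, and ephrins to 48.9 ± 2.02 RPKM in cKO and 31.6 ± 4.41 RPKM in WT. In each family the lowest cKO library exceeded the highest WT library. The sums are a description and were not tested. Outside the semaphorins the leading members were the same in both genotypes: Plxnd1 and Plxnb2 among plexins, and Nrp2 over Nrp1. Ephb4 and Epha2 led the Eph receptors, and Efnb1 and Efna1 the ephrins. Among semaphorins, Sema7a led in cKO at 36.4% of the sum and Sema4d in WT at 19.7%. Sema7a alone averaged 73.8 RPKM in cKO and 25.8 RPKM in WT, a large part of the difference between the semaphorin sums.

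**Figure D2:**
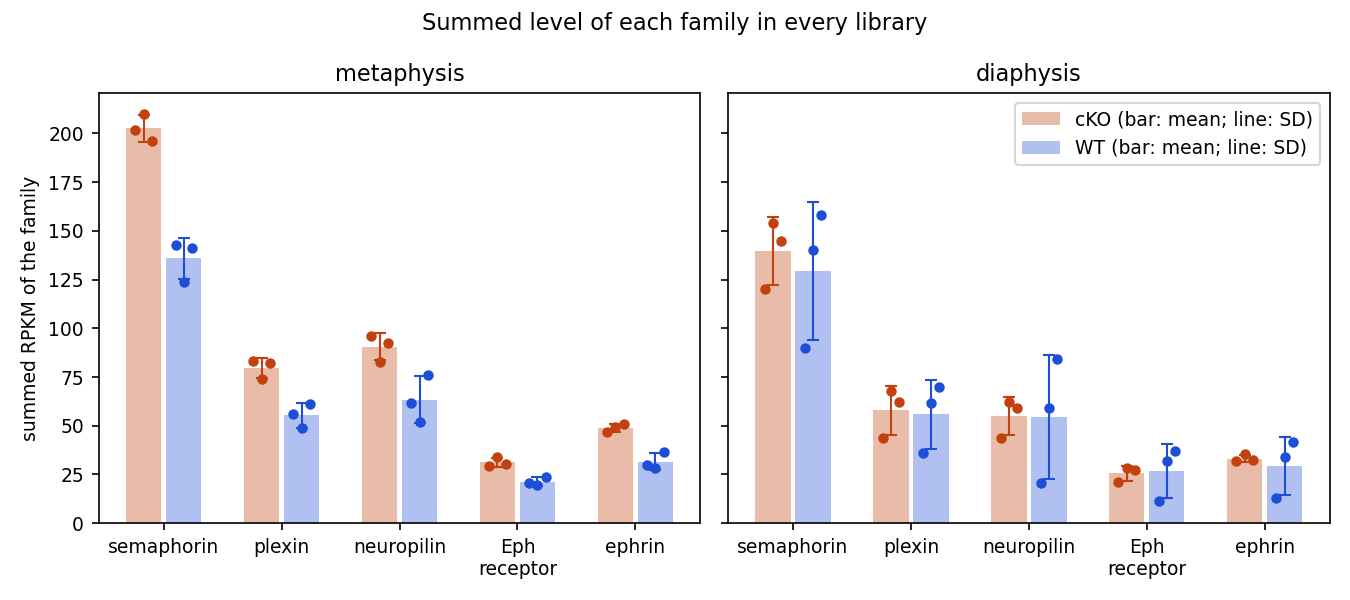
Summed RPKM of each family by library in the metaphysis (left) and the diaphysis (right); points are libraries, bars means and lines SD of 3 libraries, cKO left of WT. In the metaphysis cKO and WT do not overlap, for example 196 to 210 RPKM in cKO and 124 to 143 RPKM in WT for semaphorins; in the diaphysis they overlap in every family.

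Markers of several cell types differed between genotypes in the metaphysis as well. Of the endothelial markers, 8 of 22 rose and none fell, and their summed level was 325 to 340 RPKM in cKO libraries and 241 to 246 RPKM in WT libraries. Of 16 osteoblast markers 10 rose, with sums of 23666 to 25421 RPKM in cKO and 15231 to 19624 RPKM in WT. Osteoclast markers rose in 8 of 11 tested (sums of 4477 to 5066 RPKM in cKO and 2766 to 3346 RPKM in WT), and chondrocyte markers in 9 of 16 tested (1976 to 2970 RPKM in cKO and 1225 to 1487 RPKM in WT). In the other direction, B lymphoid markers fell in 10 of 16 (339 to 403 RPKM in cKO and 520 to 642 RPKM in WT) and erythroid markers in 6 of 15 tested (34593 to 44643 RPKM in cKO and 46404 to 52696 RPKM in WT). Megakaryocyte markers summed to 410 to 570 RPKM in cKO and 682 to 856 RPKM in WT, and 2 of 12 fell. Osteocyte markers summed to 459 to 646 RPKM in cKO and 254 to 398 RPKM in WT, with 3 of 9 tested higher and 1 lower. Tendon and periosteum markers summed to 1665 to 1693 RPKM in cKO and 1016 to 1222 RPKM in WT. Of these 10 markers, 2 rose, Scx and Ctsk, of which Ctsk is on the osteoclast list too. The median log2 fold change of the 10 was only 0.02, with 6 above 0 and 4 below, so the list did not shift as a whole. The sums of neutrophil, T and NK cell, skeletal muscle and adipocyte markers overlapped between genotypes. Most of their log2 fold changes were below 0 all the same. This held for 16 of 16 neutrophil, 6 of 8 T and NK cell, 16 of 16 skeletal muscle and 8 of 8 adipocyte markers tested. The medians were -0.24, -0.22, -0.83 and -0.28 in that order. Only 1 gene of these lists was called, Myh1 of skeletal muscle, which fell. For the 9 lists with sums apart, none of the genes held in the table was at 0 in any metaphysis library. The part of these shifts in the results for the guidance genes was not tested. The levels of peripheral nerve markers were low and overlapped, at 27.8 to 42.9 RPKM in cKO and 25.7 to 35.6 RPKM in WT, with 6 of 16 tested, none called, and 1 to 3 genes of the list at 0 in a library.

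Further genes of semaphorin signalling were examined from a list of 41 that holds both intracellular effectors and receptors or co-receptors other than plexins and neuropilins, such as Met, Itgb1, Cd72 and L1cam. Of these, 34 were tested in the metaphysis, 6 rose and none fell, with a median log2 fold change of 0.18. Those that rose were the small GTPases Rhod and Rnd3, the exchange factor Farp1, the receptor kinase Erbb2, which couples to B-class plexins, the membrane protein Ptk7 and the actin bundler Fscn1. Rhod averaged 10.1 ± 1.93 RPKM in cKO and 4.0 ± 0.242 RPKM in WT (SD, n = 3 each), a log2 fold change of 1.3 ± 0.15 (SE, adjusted p = 0.0101, limma). Fscn1 averaged 44.8 ± 4.13 RPKM in cKO and 22.2 ± 2.75 RPKM in WT, a log2 fold change of 1.02 ± 0.12 (SE, adjusted p = 0.0101). Of 40 genes listed for Eph and ephrin signalling, 36 were tested, 7 rose and 1 fell, with a median of 0.06. Grb10, an adaptor that binds Eph receptors, averaged 33.7 ± 2.05 RPKM in cKO and 19.2 ± 1.08 RPKM in WT (log2 fold change 0.81 ± 0.09, adjusted p = 0.00907). The other 6 that rose were Ptpn13, a phosphatase that acts on B-type ephrins, Rgs3, Inppl1, and the exchange factors Arhgef5, Arhgef15 and Arhgef19. The phosphatase Acp1 fell, at 18.3 ± 1.95 RPKM in cKO and 25.6 ± 2.67 RPKM in WT (log2 fold change -0.49 ± 0.12, adjusted p = 0.0424). These shares, 17.6% and 19.4% higher, stand beside the 7.51% over all genes, and the list medians beside -0.04. Both lists were chosen with earlier results of these data known, so the comparison is a description only.

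Other guidance genes came from a list of 26, holding Slits, netrins and repulsive guidance molecules with their receptors, the Flrt genes, Draxin and Reln. Of 15 tested, 4 (26.7%) were higher in metaphysis cKO and none lower, against 7.51% of all genes higher, with a median of 0.43 against -0.04. This list, too, was chosen with earlier results of these data known. Unc5b, a netrin receptor of vessels, averaged 49.4 ± 4.33 RPKM in cKO and 23.7 ± 4.40 RPKM in WT (SD, n = 3 each), a log2 fold change of 1.07 ± 0.14 (SE, adjusted p = 0.0117, limma). Slit3, a secreted ligand made by bone cells, averaged 20.5 ± 1.76 RPKM in cKO and 10.1 ± 1.41 RPKM in WT (log2 fold change 1.02 ± 0.13, adjusted p = 0.0108). Slit2 and the netrin and RGM receptor Neo1 were the other 2.

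**Figure D3:**
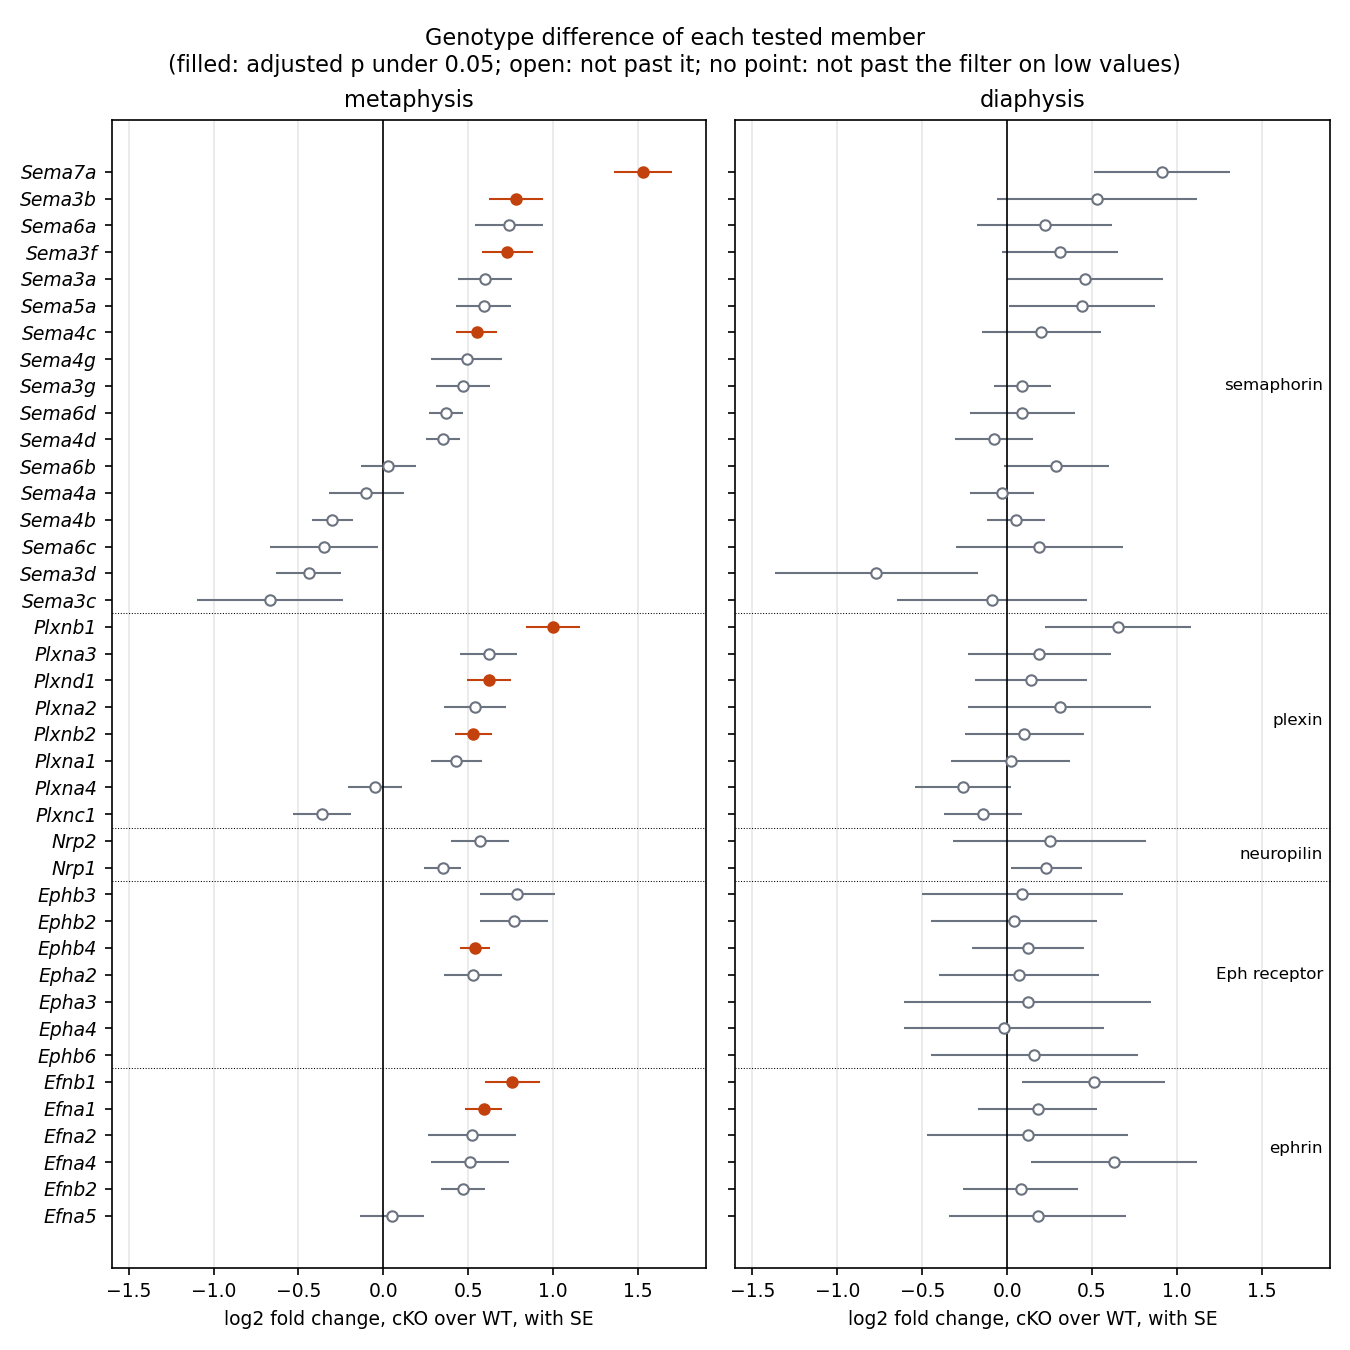
Log2 fold change (cKO over WT, with SE) of each member tested in the metaphysis (left) and the diaphysis (right), grouped by family. Filled points passed an adjusted p of 0.05. In the metaphysis 30 of 37 points lie above 0 and 10 are filled; in the diaphysis 32 of 39 lie above 0, none is filled, and the bars are longer.

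In the diaphysis no member passed. The table listed all 52 genes and 39 were tested, of 12540 genes tested, of which 0% were called. The smallest adjusted p in limma was 1, over all genes as over the members, and 86 genes (0.686%) but no member had an unadjusted p under 0.05. Of the 39, 32 had a log2 fold change above 0, against 50.7% of all genes, and the median was 0.14, against 0.00 over all genes. The only member tested whose cKO libraries all lay above WT was Sema7a, 1 of 39, against 3.03% of genes in either direction and 2.24% higher in cKO. Efna3 and Epha1, below the filter, were also apart, Epha1 with cKO below WT.

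Sema7a measured 25.3, 31.8 and 31.1 RPKM in diaphysis cKO libraries, against 7.65, 20.3 and 23.8 RPKM in WT libraries. The lowest cKO library was above the highest WT library, and WT replicate 1 lay far below the other WT libraries. The log2 fold change was 0.91 ± 0.40 (SE, n = 3 each) with all libraries, and 0.41 ± 0.18 without WT replicate 1, where its unadjusted limma p was 0.0481 and its adjusted p 1. Plxnb1 had 3.64, 4.52 and 3.39 RPKM in cKO, against 1.15, 2.89 and 4.11 RPKM in WT, with overlap (0.65 ± 0.43, and 0.14 ± 0.23 without WT replicate 1). Efna4 had 1.82, 1.55 and 1.07 RPKM in cKO, against 0.380, 1.26 and 1.44 RPKM in WT, also overlapping (0.63 ± 0.49, and 0.10 ± 0.31 without it). For Sema3d the values were 2.45, 5.38 and 4.66 RPKM in cKO, against 2.53, 8.79 and 14 RPKM in WT (-0.77 ± 0.60, and -1.47 ± 0.34 without it). All 4 kept their sign without that library, and none passed after adjustment.

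The ephrin pairs known from bone showed the same low WT library. Efnb1 measured 13, 14.2 and 12.9 RPKM in diaphysis cKO libraries and 4.38, 12.8 and 14.6 RPKM in WT libraries. Efnb2 measured 3.90, 4.38 and 4.73 RPKM in cKO and 2.34, 4.68 and 6.13 RPKM in WT. Ephb4 measured 7.76, 9.08 and 9.46 RPKM in cKO and 4.62, 9.62 and 11.6 RPKM in WT. In all 3 the first WT library is the lowest and the third the highest, and the cKO libraries lie between them. Epha2 measured 5.61, 10.3 and 10.4 RPKM in cKO and 3.73, 11 and 12.5 RPKM in WT. Efna1 measured 7.83, 8.31 and 7.29 RPKM in cKO and 3.74, 8.40 and 10.3 RPKM in WT. Efna2 measured 0.882, 1.49 and 1.22 RPKM in cKO and 0.356, 1.47 and 2.13 RPKM in WT. These A-class members have the same order of WT libraries. Ephb2 measured 0.947, 1.24 and 1.12 RPKM in cKO and 0.474, 1.17 and 2.07 RPKM in WT. Ephb3 measured 2.41, 2.64 and 2 RPKM in cKO and 0.704, 3.43 and 4.17 RPKM in WT. Epha4, above the filter in the shaft, measured 1.29, 1.40 and 1.44 RPKM in cKO and 0.432, 2.52 and 2.29 RPKM in WT. For Ephb3 and Epha4 the cKO libraries lie below both of the other WT libraries, and without WT replicate 1 the log2 fold change of Epha4 was -0.76 ± 0.24 (SE, unadjusted p = 0.0124, adjusted p = 0.767, limma).

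Semaphorins overlapped between genotypes in the diaphysis, Sema7a apart. Sema3a measured 1.59, 3.08 and 2.81 RPKM in cKO libraries and 0.863, 1.95 and 2.97 RPKM in WT libraries. Sema3b measured 6.17, 11.6 and 9.44 RPKM in cKO and 2.11, 8.83 and 11.7 RPKM in WT. Sema3f measured 2.91, 3.48 and 3.30 RPKM in cKO and 1.46, 3.31 and 3.51 RPKM in WT. In these 3 secreted ligands WT replicate 1 is again the lowest library. Sema4c measured 5.94, 5.83 and 6.30 RPKM in cKO and 2.82, 6.77 and 7.46 RPKM in WT. Sema6d measured 9.85, 14.7 and 12.2 RPKM in cKO and 7.31, 11.7 and 17 RPKM in WT. Sema4d measured 18.6, 29.8 and 27.3 RPKM in cKO and 20.9, 28.1 and 30.2 RPKM in WT. For Sema4d the lowest library is cKO replicate 1. Sema3e stayed below 1 RPKM in the shaft too, with 0.111, 0.147 and 0.0627 RPKM in cKO and 0.112, 0.372 and 0.418 RPKM in WT.

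Plexins and neuropilins likewise overlapped between genotypes in the diaphysis. Plxnb2 measured 10.8, 20.7 and 17.7 RPKM in cKO libraries and 8.96, 18.7 and 19.1 RPKM in WT libraries. Plxnd1 measured 13.6, 20.4 and 18.1 RPKM in cKO and 9.28, 19.1 and 21.3 RPKM in WT. Both had risen in the metaphysis, and here replicate 1 is the lowest library of each genotype. Plxna1 measured 3.89, 6.74 and 6.19 RPKM in cKO and 3.30, 6.05 and 7.73 RPKM in WT. Plxna2 measured 3.76, 6.52 and 6.69 RPKM in cKO and 1.75, 5.53 and 8.61 RPKM in WT. Plxnc1, the plexin of Sema7a, measured 4.67, 5.81 and 6.76 RPKM in cKO and 8.07, 6.16 and 5.01 RPKM in WT. For Plxnc1 WT replicate 1 is the highest library. Nrp2 measured 32.4, 49.1 and 46.7 RPKM in cKO and 12.9, 47.3 and 71.6 RPKM in WT. Nrp1 measured 11.4, 12.9 and 12.4 RPKM in cKO and 7.72, 11.8 and 12.4 RPKM in WT. WT replicate 1 is the lowest for both neuropilins, and it sets the wide spread of Nrp2 together with WT replicate 3.

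**Figure D4:**
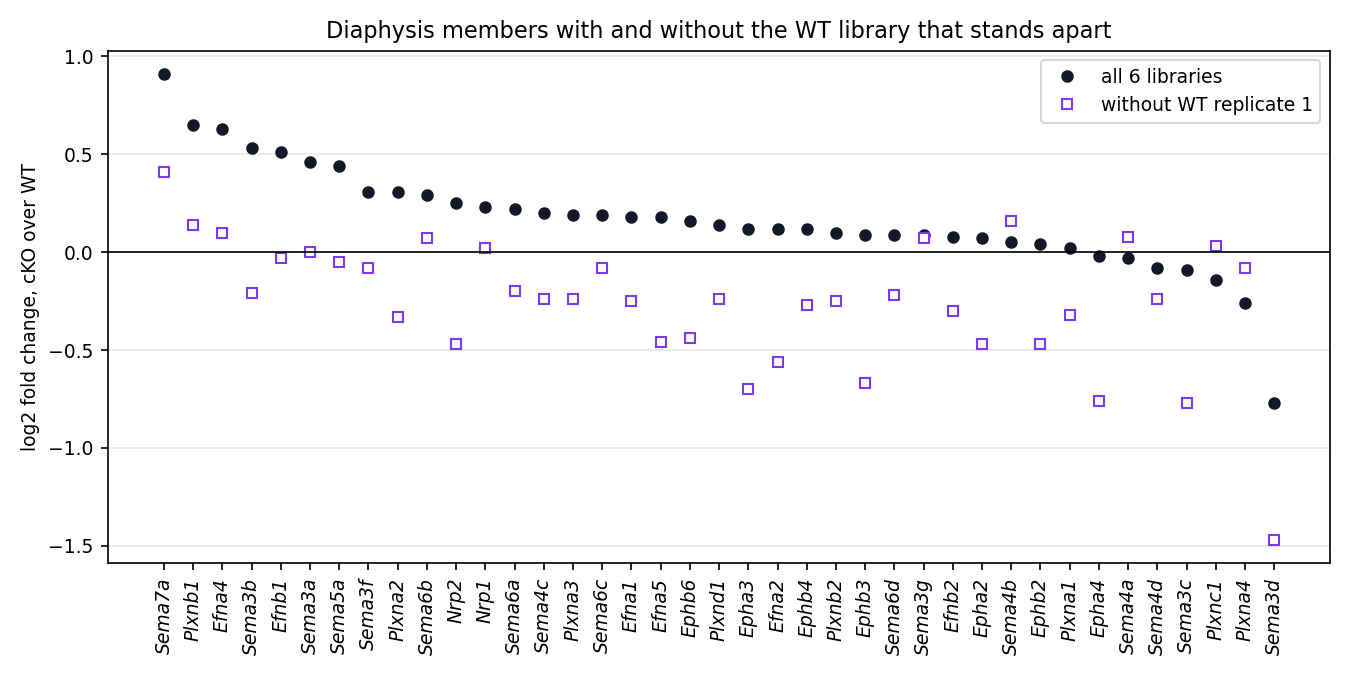
Log2 fold change (cKO over WT) in the diaphysis of the 39 members tested, with all 6 libraries (filled circles) and without WT replicate 1 (open squares), ordered by the first. The median is 0.14 with all libraries and -0.24 without that one, and 27 of the 39 change sign.

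The diaphysis values moved with the library left out. WT replicate 3 was the highest library for 24 of the 39 members, and without it the median log2 fold change over the members was 0.44, with 3 members at an unadjusted p under 0.05. Without WT replicate 2 it was 0.33, and without cKO replicates 1, 2 and 3 in turn it was 0.24, 0.08 and 0.15, against 0.14 with all 6 libraries. No member passed after adjustment in any of these fits. Leaving out WT replicate 1 turned the difference round for 27 of the 39 members. The median then became -0.24, with 9 members above 0 and 30 below, while the median of all genes was -0.013. Members with an unadjusted p under 0.05 were then 5 of 39 (Epha4, Ephb3, Sema3c, Sema3d and Sema7a), against 4.56% of all genes, and none passed after adjustment (smallest adjusted p 0.481, limma). Of these, Sema7a was the one higher in cKO. Osteoblast marker sums were 11704 to 17009 RPKM in diaphysis cKO libraries and 5067 to 28978 RPKM in WT libraries, with the lowest in WT replicate 1 and the highest in WT replicate 3, and endothelial sums 246 to 267 RPKM in cKO and 197 to 244 RPKM in WT. Their part in the diaphysis values was not tested.

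The genotype difference itself was then compared between regions, metaphysis minus diaphysis, in 1 limma fit of the 12 libraries. None of 12321 genes passed (0%), none of the 36 members tested in both regions passed, and none of these had an unadjusted p under 0.05, against 495 genes (4.02%) overall. The median over the members was 0.34, against -0.03 over all genes. For Sema7a the difference was 0.62 ± 0.48 on the log2 scale (SE, adjusted p = 0.908), and for Plxnb1 0.35 ± 0.50. With all libraries, then, a difference between regions was not shown for any member. Without diaphysis WT replicate 1, 241 genes (1.96%) and 5 members passed, each with the more positive difference in the metaphysis. They were Sema7a at 1.12 ± 0.25 (adjusted p = 0.0493, limma), Ephb3, Efna1, Ephb4 and Sema4c. In the diaphysis without that library, only Sema7a of these was above 0, at a log2 fold change of 0.41. The diaphysis value was then -0.67 for Ephb3, -0.25 for Efna1, -0.27 for Ephb4 and -0.24 for Sema4c. The calls for these 5 genes depend on leaving out that 1 library.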

How the data were processed

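Messenger RNA of femur metaphysis and diaphysis was measured in 12 libraries, grouped by the labels into 4 groups of 3. Per the labels' protocols, RNA came from Trizol extraction and the TruSeq RNA kit. That kit keeps no strand information, and genes that overlap in antisense are not separable. The authors deposited 1 table per region of RPKM per RefSeq transcript, scaled to transcript length and library total, per the file headers. TopHat 1.3.2 and Bowtie 0.12.7.0, as well as Partek 6.6 and CASAVA 1.8.2, are listed without roles in the submitters' processing notes, with mm9 as the build. How reads shared by transcripts were treated is not stated there.

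Depth was worked out from the spacing of low values; 69.1% to 73.8% of these were whole reads to within 0.1 (by chance, 20%), too few to rebuild counts, so of the tests fixed for counts and for RPKM the second was used. Transcripts were summed per symbol. A gene was tested in a region where 3 of its 6 libraries reached 1 RPKM. The test was limma 3.58.1 with trend, in R 4.3.3, on log2(RPKM + 0.1), which understates the fold change of low genes. Tests were 2-sided, adjusted by Benjamini-Hochberg over all genes, with a threshold of 0.05. The tables were normalized separately, so levels were not tested across regions. Summaries used Python 3.11.15, pandas 2.3.3, numpy 2.4.6 and matplotlib 3.10.9, and the scripts were tested on simulated data.

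The members and gene lists were chosen with earlier results of these data known. Named members were those called, the 4 of smallest p in a region with no call, the 2 most abundant per family and region, and those with a known role in bone. Alternatives were a pseudocount of 1, no filter, quantile normalization, rescaling without globin, 1 model of all 12 libraries, and each library left out.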

Additional observations from a re-analysis of the deposited data

How the results depend on the processing

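No log2 fold change of the 25 named members tested in the metaphysis changed sign under any alternative run. Nor did those of Sema7a, Plxnb1, Sema3d and Efna4 in the diaphysis, but these were picked there for their smallest p. Of all 39 members tested in the diaphysis, 27 changed sign without WT replicate 1. The count of genes called in the metaphysis, 1441, became 789 without the filter on low values and 7 in 1 model of all 12 libraries, and the 10 members became 4 and 0. With a library left out, 163 to 1424 genes and 1 to 9 members were called; dropping cKO replicate 3 gave 163 genes, dropping WT replicate 1 gave 180, WT replicate 2 gave 240 and WT replicate 3 gave 665. A pseudocount of 1 gave 12 members, quantile normalization 13 and rescaling without globin 10. The diaphysis gave 0 genes and 0 members under each alternative. The difference between regions gave 2 genes without the filter, 0 to 241 genes and 0 to 5 members with a library left out, the highest without diaphysis WT replicate 1, and 0 otherwise. The causes were not tested. No paired analysis was possible because the labels give no shared replicate numbers; those used here follow the order of the records. Depth limits the members below the filter: 10 reads on a 2 kb transcript are worth 0.0923 to 0.270 RPKM.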
